A study of Rattus norvegicus with 4 samples.

Results

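The genes described here are 9 genes of B cell development, Vpreb1, Vpreb3, Igll1, Dntt, Rag1, Rag2, Cd79a, Cd79b and Pax5, read by symbol from a table of 13554 rat genes. The table gave rows for 8 of the 9, and Cd79a was not analysed here. They were measured by RNA sequencing in articular cartilage, which covers the bone ends in joints, and in xiphoid cartilage, the lower tip of the breastbone, with 2 libraries per tissue. All 4 libraries came from Sprague-Dawley rats aged 8 to 10 weeks, and the labels name no treatment, genotype, sex or joint. The labels do not say whether the libraries of a tissue came from separate animals or pools. The p-values therefore weigh the tissue difference only against variation between these libraries, which may be technical variation.

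B cells arise from blood progenitors, in adult mammals mainly in the bone marrow. A precursor first joins the segments of its heavy chain gene with the Rag1 and Rag2 enzymes, while the enzyme of Dntt adds bases at the joints. The new heavy chain is then tested in a precursor receptor, in which the proteins of Vpreb1 and Igll1 stand in for a light chain, and Cd79a and Cd79b carry the signal. These surrogate light chain and recombination genes are switched off as the cell matures, whereas Cd79a, Cd79b and the lineage factor Pax5 stay on in mature B cells. Thymocytes, the precursors of T cells, also use Rag1, Rag2 and Dntt.

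In these data the genes of the B cell precursor were detected in both articular libraries and were at or near 0 counts in both xiphoid libraries. Of the 8 genes found, 7 passed the filter on low counts, and all 7 were higher in articular cartilage. Over all 11202 genes tested, the shares were 25.0% higher in articular and 24.5% higher in xiphoid cartilage. A low gene that passes the filter through 1 tissue alone has to differ between the tissues, so this count describes the genes and supports nothing further. The lower bounds for the 4 tested genes without a xiphoid count ran from 32.3-fold for Dntt to 57.4-fold for Cd79b. In the reads of the articular libraries, the precursor genes outnumbered 4 genes of the mature B cell surface by 5.93 and 5.71 to 1, whereas against the whole mature B cell list the ratio was 0.215 and 0.138. In bulk tissue, fewer cells of a type and less RNA per cell cannot be told apart.

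Sequence before the annotated start site is shown for the precursor genes, because they were high and low in the same libraries and because Vpreb1 has a near-identical copy, Vpreb2, that shares its reads. The sequences are from RefSeq (assembly GRCr8, while the counts used rn6), run 5′ to 3′ on the gene's strand, and were found for 6 of the 8 genes and for Vpreb2. Cd79b and Pax5 have no sequence here. Capitals mark matches, on either strand, to the octamer ATGCAAAT, the letters CCCNNGGG bound by EBF factors, the E-box CAGNTG and the RUNX core TGTGGT. Vpreb1 (RefSeq Vpreb1a) is shown at chr11:97630924-97631173 on the plus strand and Vpreb2 (RefSeq Vpreb1b) at chr11:96514405-96514654 on the minus strand, each the 250 bases before the start site. Igll1 is shown at chr11:97642937-97643058 on the plus strand, the 122 bases of its window that lie outside the annotated gene span. Vpreb3 is shown at chr20:12718259-12718288 on the minus strand, 30 bases around its octamer inside the annotated span. Dntt is shown at chr1:249805552-249805801 on the plus strand, Rag1 at chr3:108383185-108383434 on the minus strand and Rag2 at chr3:108357149-108357398 on the plus strand, all whole windows of 250 bases.
Vpreb1: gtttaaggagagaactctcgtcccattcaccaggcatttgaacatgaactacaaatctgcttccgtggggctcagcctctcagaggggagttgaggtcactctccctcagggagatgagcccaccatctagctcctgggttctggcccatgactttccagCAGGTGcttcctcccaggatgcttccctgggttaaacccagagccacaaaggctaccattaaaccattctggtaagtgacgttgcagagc
Vpreb2: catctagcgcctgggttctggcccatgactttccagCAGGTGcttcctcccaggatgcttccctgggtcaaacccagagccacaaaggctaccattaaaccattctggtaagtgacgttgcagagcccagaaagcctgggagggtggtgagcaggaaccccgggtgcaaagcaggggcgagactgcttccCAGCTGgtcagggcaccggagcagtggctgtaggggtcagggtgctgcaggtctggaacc
Igll1: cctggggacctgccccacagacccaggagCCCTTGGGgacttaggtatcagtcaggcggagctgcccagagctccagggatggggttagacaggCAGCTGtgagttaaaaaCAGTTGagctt
Vpreb3: gggctgATTTGCATgctctgtTGTGGTcca
Dntt: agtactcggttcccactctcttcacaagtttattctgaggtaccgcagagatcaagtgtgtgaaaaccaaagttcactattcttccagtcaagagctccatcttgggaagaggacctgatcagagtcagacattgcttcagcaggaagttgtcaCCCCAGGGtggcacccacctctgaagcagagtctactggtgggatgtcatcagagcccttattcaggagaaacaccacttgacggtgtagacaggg
Rag1: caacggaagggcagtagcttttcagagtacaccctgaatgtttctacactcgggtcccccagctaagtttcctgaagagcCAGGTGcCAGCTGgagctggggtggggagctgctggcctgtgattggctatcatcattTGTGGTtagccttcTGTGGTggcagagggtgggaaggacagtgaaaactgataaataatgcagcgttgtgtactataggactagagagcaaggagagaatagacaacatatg
Rag2: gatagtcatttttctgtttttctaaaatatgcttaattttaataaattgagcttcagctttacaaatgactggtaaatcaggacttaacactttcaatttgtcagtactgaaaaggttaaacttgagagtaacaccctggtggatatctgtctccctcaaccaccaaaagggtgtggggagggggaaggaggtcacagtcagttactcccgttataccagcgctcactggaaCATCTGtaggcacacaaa

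The Vpreb1 and Vpreb2 windows overlap by 126 bases when aligned, of which 124 were identical (98.4%) and 2 differed. The start site of Vpreb2 is therefore annotated 124 bases further downstream than that of Vpreb1 relative to the shared stretch. The octamer was found in the window of Vpreb3, 56 bases before the start site, and in 1.56% of all 33469 RefSeq promoter windows of this length. CCCNNGGG was found before Igll1 and Dntt, and in 10.8% of windows. An E-box was found before Vpreb1, Vpreb2, Igll1, Rag1 and Rag2, and in 43.3% of windows. The RUNX core was found in the windows of Vpreb3, Igll1 and Rag1, and in 14.5% of windows. The whole Vpreb3 window and 128 bases of the Igll1 window lie inside the annotated gene span. The octamer and RUNX matches of Vpreb3, and the RUNX match and some E-boxes of Igll1, are in those parts. These searches covered all 250 bases of each window, the parts not printed included. No motif was in the windows of all 6 genes. A match describes letters only, and binding was not measured.

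Among the surrogate light chain genes, Vpreb1 encodes the part of the precursor receptor that resembles a variable domain. It had estimated counts of 88.28 and 65.53 in articular replicates 1 and 2 and 0 in both xiphoid libraries. As CPM, the count normalised to library size, this was 10.5 and 8.48 in articular cartilage, a mean of 9.50 ± 1.45 (SD, n = 2). The tissues did not overlap. Against the 3 counts over both xiphoid libraries that a count of 0 allows (0.190 CPM), Vpreb1 was at least 50.2-fold higher in articular cartilage (edgeR quasi-likelihood test, adjusted p = 4.32e-06). Floors and intervals cover counting error only.

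The Vpreb1 counts were not whole because reads were shared with its copy. Vpreb2 had 49.72 and 50.47 counts in the articular libraries and 0 in both xiphoid libraries, and the copies summed to exactly 138 and 116 counts. How the reads divide between the copies is therefore uncertain, while the absence of counts in xiphoid cartilage holds for both. With the copies summed, which was tried after the data were seen, the adjusted p was 5.97e-07 by the same edgeR test.

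Igll1 encodes the other chain of the surrogate light chain, which resembles a constant domain. It had 91 and 53 counts in the articular libraries (10.9 and 6.81 CPM, mean 8.85 ± 2.88, SD, n = 2) and 0 in both xiphoid libraries. Both articular libraries were above both xiphoid libraries, with replicate 1 the higher. The difference was at least 47.0-fold (edgeR adjusted p = 1.02e-05). Igll1 lies beside Vpreb1 in the RefSeq assembly, with 1 pseudogene between them.

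Vpreb3 encodes a Vpreb-related protein of precursor B cells and is only grouped here with the surrogate light chain genes. Unlike Vpreb1 and Igll1, it had some xiphoid reads. Its counts were 53 and 25 in articular and 2 and 1 in xiphoid cartilage, or 6.34, 3.21, 0.235 and 0.137 CPM. Of the tested genes, this one differed most between the articular libraries, yet the lower of them stayed above both xiphoid libraries. The log2 fold change was 4.55 with a standard error of 0.70 (edgeR adjusted p = 0.000193). As a ratio of counts scaled for depth this was 25.5, with a 95% counting interval of 8.39 to 126.

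Of the recombination enzymes, Dntt encodes terminal deoxynucleotidyl transferase. It had 50 and 49 counts in the articular libraries (5.98 and 6.29 CPM, mean 6.14 ± 0.221, SD, n = 2) and 0 in both xiphoid libraries. The articular libraries were nearly equal and neither overlapped xiphoid cartilage. Dntt was at least 32.3-fold higher in articular cartilage (edgeR adjusted p = 2.13e-05).

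Rag1 encodes the subunit that cuts DNA at the recombination signals. It had 51 and 35 articular counts, and 1 and 0 in xiphoid replicates 1 and 2, or 6.10, 4.50, 0.118 and 0 CPM. The single xiphoid read left both articular libraries far above. The log2 fold change was 6.08 (standard error 0.78, edgeR adjusted p = 4.61e-05), and the scaled count ratio was 84.2 with a 95% interval of 14.7 to 3363. Without xiphoid replicate 1, which held that read, the fitted log2 fold change was 8.38, a value that then depends on the prior count of the fit, and without xiphoid replicate 2 it was 5.34.

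Rag2 encodes the partner subunit of Rag1, and the genes lie next to each other with no annotated gene between them. It was the lowest of the tested genes, with 11 and 12 counts in the articular and 1 and 1 in the xiphoid libraries, or 1.32, 1.54, 0.118 and 0.137 CPM. The tissues did not overlap, but on few reads. The log2 fold change was 3.34 with a standard error of 0.90 (edgeR adjusted p = 0.00877), and the scaled count ratio was 11.3 with a 95% interval of 2.78 to 98.5. This call was lost when a xiphoid library was left out, with an edgeR adjusted p of 0.0942 without replicate 1 and 0.0703 without replicate 2. Rag2 fell below the filter when either articular library was left out.

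Of the receptor and lineage genes, Cd79b encodes a signalling chain used by both the precursor receptor and the mature B cell receptor. It had 101 and 75 counts in the articular libraries (12.1 and 9.63 CPM, mean 10.9 ± 1.73, SD, n = 2) and 0 in both xiphoid libraries. Both articular libraries were above both xiphoid libraries. Over both articular libraries together, Cd79b was at least 57.4-fold higher (edgeR adjusted p = 2.64e-06). Pax5, the transcription factor that holds cells in the B lineage, had 5 and 2 counts in the articular libraries and 0 in both xiphoid libraries. It did not pass the low-count filter and was not tested, and its articular libraries had 0.598 and 0.257 CPM. Pooled, they were at least 2.28-fold higher than the xiphoid libraries. Counts of Dntt, Rag2 and Pax5 may include reads of a gene whose span overlaps each in RefSeq (LOC120100035, Iftap and LOC120102862). Whether exons overlap was not examined, and no source used here gives the strand of counting.

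Of the 8 genes found, 5 had no count in either xiphoid library, 4 of them tested, while 0.518% of all genes tested had none. Over all 13554 genes of the table, untested ones such as Pax5 included, 623 had none. Both articular libraries were above both xiphoid libraries for all 8, against 37.1% of genes tested. Low genes that pass the filter through the articular libraries have to differ in this way. These counts therefore describe the genes and support nothing further. The median lower bound or fitted log2 fold change over the 7 tested was 5.55, beside −0.02 over all genes. None of the 7 was higher in xiphoid cartilage, with 0 at an unadjusted edgeR p under 0.05 and 0 by DESeq2 or limma-voom.

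**Figure D1:**
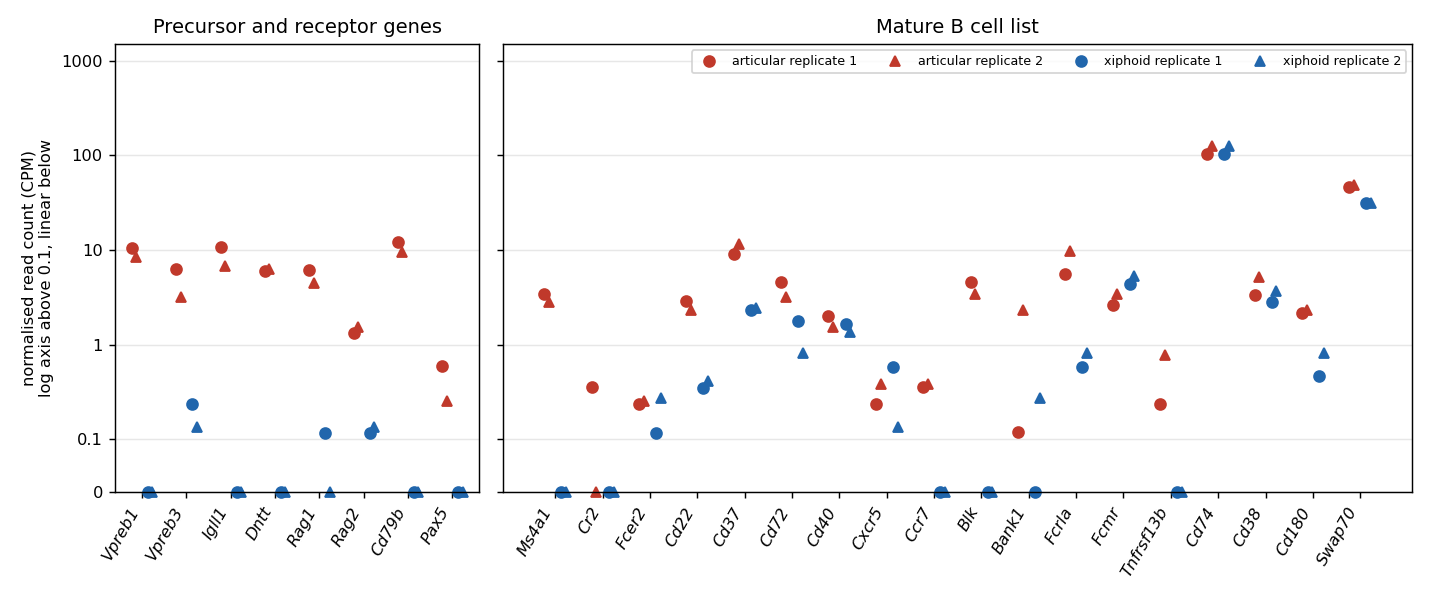
Normalised read counts (CPM, log axis above 0.1 and linear below) of the B cell precursor and receptor genes and of the mature B cell list, 1 point per library. Vpreb1, Igll1, Dntt, Cd79b and Pax5 sit at 0 in both xiphoid libraries, as do Ms4a1, Blk, Cr2, Ccr7 and Tnfrsf13b of the mature list.

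The articular libraries did not hold the genes in quite equal measure. The CPM ratio of articular replicate 1 to replicate 2 was 1.97 for Vpreb3 (95% counting interval 1.21 to 3.32) and 1.60 for Igll1 (1.13 to 2.29). Both intervals lay above 1. For Vpreb1 the ratio was 1.24 (0.892 to 1.74), and for Cd79b it was 1.25 (0.921 to 1.71). For Rag1 it was 1.36 (0.866 to 2.15), and for Dntt it was 0.9504 (0.628 to 1.44). These 4 intervals included 1, as did those of Rag2 and Pax5, which rest on few reads.

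Summed by role, the ratio between the articular libraries was 1.501 (1.21 to 1.86) for Vpreb1, Igll1 and Vpreb3. It was 1.09 (0.820 to 1.44) for the recombination enzymes. These intervals overlap, and the difference between the roles was not tested. Marker lists of other cells lay on both sides of 1. The ratio was 1.03 (0.963 to 1.11) for the erythroid, 0.980 (0.913 to 1.05) for the neutrophil and 1.23 (0.839 to 1.81) for the megakaryocyte list. It was below 1 for the plasma cell list, at 0.832 (0.798 to 0.867), and above 1 for the chondrocyte list, at 1.19. For the mature B cell list the ratio was 0.854 (0.797 to 0.914). Cd74 alone gave 861 and 975 of the 1600 and 1745 articular counts of that list. For the mature surface genes Ms4a1, Cr2, Fcer2 and Cd22, the ratio was 1.29 (0.850 to 1.96). For the precursor and receptor genes, the difference between articular replicates was small beside the difference between tissues. Their summed level was 53.8 and 40.7 CPM in the articular and 0.470 and 0.274 CPM in the xiphoid libraries. It was not small for the plasma cell list (509 and 612 against 628 and 683 CPM). Nor was it small for the mature B cell list (191 and 224 against 149 and 172 CPM).

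**Figure D2:**
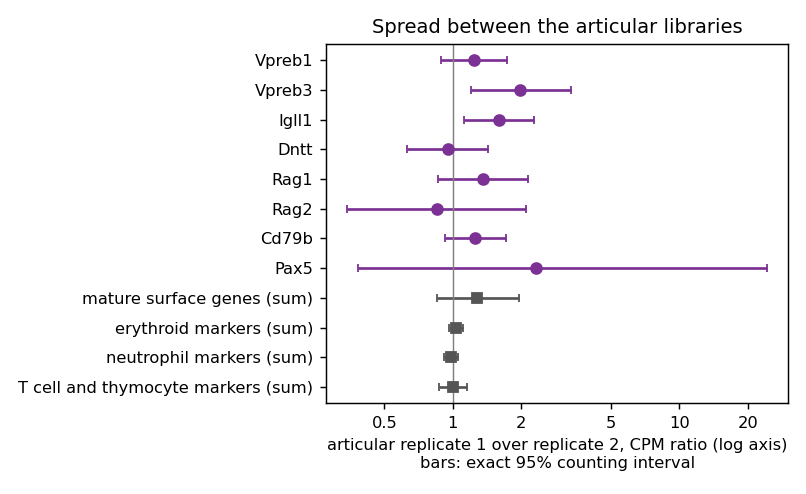
Ratio of articular replicate 1 to articular replicate 2 in CPM (log axis) for each gene and for sums of marker lists, with exact 95% counting intervals as bars. Vpreb3 at 1.97 and Igll1 at 1.60 have intervals above 1, and the erythroid, neutrophil and T cell sums lie at or near 1.

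To compare the precursor stage with mature B cells, the reads of Vpreb1, Vpreb3, Igll1, Dntt, Rag1 and Rag2 were summed and set against those of Ms4a1, Cr2, Fcer2 and Cd22, which encode proteins of the B cell surface. Articular replicate 1 had 344 precursor and 58 mature counts, a ratio of 5.93 (95% interval 4.48 to 7.98), and replicate 2 had 240 and 42, a ratio of 5.71 (4.10 to 8.13). Xiphoid replicate 1 had 4 and 4 counts, a ratio of 1.0 (0.186 to 5.37), and replicate 2 had 2 and 5, a ratio of 0.40 (0.0381 to 2.44). Both articular ratios were above both xiphoid ratios, which rest on few reads. The interval of xiphoid replicate 1, from 8 reads in all, overlapped those of the articular libraries. The genes differ in length, so the ratio is not one of molecules, and it is only set side by side between libraries. Adding the Vpreb2 reads, an addition made after the data were seen, gave 6.79 and 6.90 in the articular libraries.

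The ratio depends on which mature genes are summed. With all 18 matched genes of the mature B cell list, it was 0.215 and 0.138 in the articular and 0.00317 and 0.00159 in the xiphoid libraries. The articular libraries stayed the higher, with mature sums of 1600 and 1745 against 1263 and 1255 counts. This difference therefore came mostly from the precursor counts, 344 and 240 against 4 and 2. Much of that list's sum was Cd74, the invariant chain of MHC class II, which macrophages and other cells also make.

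The mature B cell list had 20 genes, of which 18 were found and 12 tested. Of these, 8 were higher in articular cartilage, none in xiphoid cartilage, and 4 did not pass. Its median log2 fold change was 1.67, beside −0.02 over all genes. Without either xiphoid library, or by DESeq2, 6 passed, and without either articular library 7 did.

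Ms4a1, which encodes the surface protein CD20, had 29 and 22 counts in the articular libraries and 0 in both xiphoid libraries, at least 16.6-fold higher (edgeR adjusted p = 0.000238). Blk, a kinase of the B cell receptor, had 38 and 27 counts against 0 and 0, at least 21.2-fold higher (edgeR adjusted p = 0.000109). For these B cell genes, as for the precursor genes, no articular library overlapped a xiphoid one.

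Fcrla, an intracellular Fc receptor-like protein of B cells, had 47 and 76 counts against 5 and 6 and was 10.8-fold higher (edgeR adjusted p = 0.000108). Cd22, an inhibitory co-receptor, was 6.60-fold higher with 24 and 18 counts against 3 and 3 (edgeR adjusted p = 0.00356). Cd37, a tetraspanin of leukocytes, was 4.27-fold higher (edgeR adjusted p = 0.000207).

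The remaining calls in the mature list were smaller. Cd180 (3.45-fold), Cd72 (2.93-fold) and Swap70 (1.53-fold) passed, and each lost its call when at least 1 of the libraries was left out. The log2 fold change of Cd72 ranged from 1.15 to 2.23 over these fits. Cd74 was level, with 103 and 125 CPM in the articular and 102 and 124 CPM in the xiphoid libraries (log2 fold change 0.01, edgeR adjusted p = 0.964). Fcmr, the receptor for immunoglobulin M, had 2.63 and 3.47 CPM against 4.35 and 5.34 CPM (log2 fold change −0.66, edgeR adjusted p = 0.162). Cd40 and Cd38 did not pass either, and Cr2, Fcer2, Bank1, Cxcr5, Ccr7 and Tnfrsf13b were too low to test. Cr2 and Fcer2, which mark resting mature B cells, had at most 3 counts in any library.

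**Figure D3:**
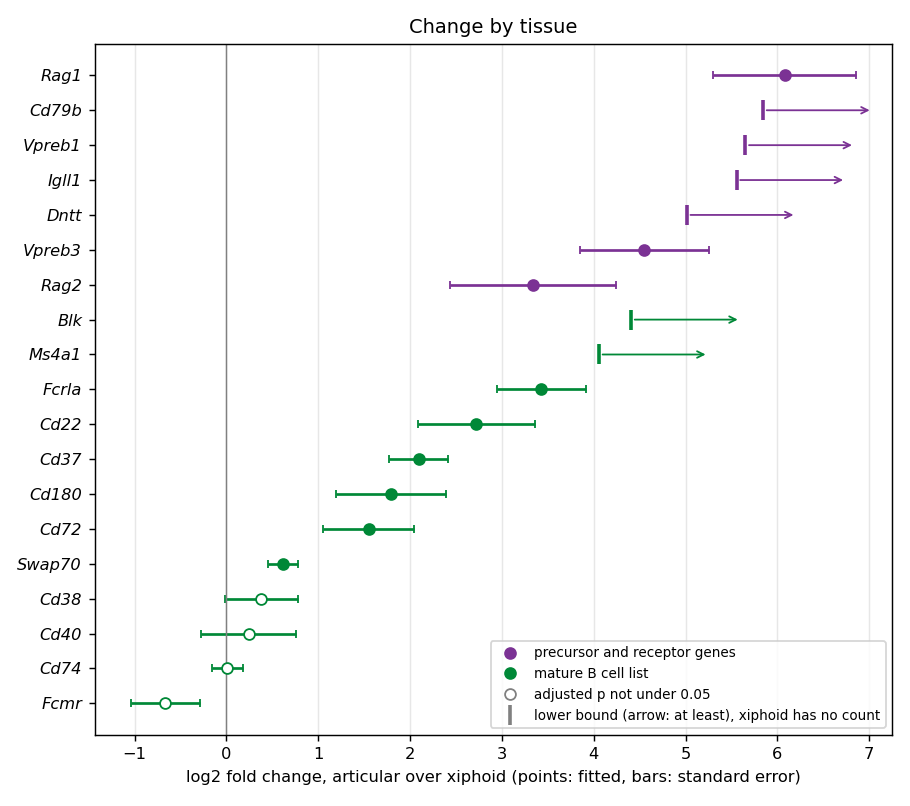
Log2 fold change of articular over xiphoid cartilage for the tested precursor and receptor genes and the tested mature B cell list, with standard errors as bars, open points for genes that did not pass, and lower bounds with arrows for genes with no xiphoid count. The fitted values of Rag2, Vpreb3 and Rag1 run from 3.34 to 6.08, with Vpreb1, Igll1, Dntt and Cd79b as lower bounds, and the fitted values of the mature list from −0.66 for Fcmr to 3.43 for Fcrla, with Blk and Ms4a1 as lower bounds.

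Other genes of precursor stages did not all go with them. Of 18 listed, 16 were found and 13 tested, and 7 were higher in articular cartilage and 4 in xiphoid (median log2 fold change 1.29). The shares over all genes tested were 25.0% and 24.5%. Il7r, the receptor for interleukin 7 on lymphoid precursors, had 17 and 10 counts in the articular and 0 in both xiphoid libraries, at least 8.81-fold higher (edgeR adjusted p = 0.00229). Ptprc, the leukocyte antigen CD45, was 7.86-fold higher (edgeR adjusted p = 0.000176), Mme, a peptidase of early B cells and also of stromal cells, 4.40-fold (0.000113), and Sox4, a factor of many immature cells, 2.68-fold (5.78e-05). Kit, the stem cell factor receptor of progenitors and mast cells, was 3.47-fold higher in xiphoid cartilage (edgeR adjusted p = 2.67e-05). Lef1, Cd24 and Cd34 were also higher there, by 1.62-fold to 1.72-fold.

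Of 17 listed transcription factors of the B lineage, 16 were found and 14 tested. Higher in articular cartilage were 8 and in xiphoid 1 (median log2 fold change 1.16), beside 25.0% and 24.5% of all genes tested. Pou2af1, a co-activator that binds octamer factors, had 57 and 68 counts in the articular and 0 and 1 in the xiphoid libraries, a scaled ratio of 122 (21.6 to 4871, edgeR adjusted p = 1.03e-05). Spib, a factor of B cells and plasmacytoid dendritic cells, had 97 and 90 counts against 0 and 2, a ratio of 91.5 (25.0 to 761, edgeR adjusted p = 3.06e-06). Nearly all reads of both genes came from the articular libraries. Gfi1, a repressor of lymphoid and myeloid progenitors, had 59 and 46 counts against 0 and 0, at least 34.3-fold higher (edgeR adjusted p = 1.88e-05). Ikzf1, which is needed for lymphoid development, was 16.9-fold higher (edgeR adjusted p = 7.37e-06). Its log2 fold change of 4.08 was 4.94 without xiphoid replicate 1 and 3.62 without replicate 2. The xiphoid reads of Pou2af1 and Spib were in replicate 2. Without it their fitted log2 fold changes went from 6.62 to 9.001 and from 6.35 to 9.58. Both higher values depend on the prior count of the fit. Without xiphoid replicate 1 the log2 fold changes of Pou2af1 and Spib were 5.68 and 5.33.

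Ebf1, a factor that starts the B cell programme with Tcf3 and is also made by fat and stromal cells, went another way. It had 5.98 and 12.1 CPM in the articular and 12.2 and 14.4 CPM in the xiphoid libraries, and was singled out after its values were seen. Its log2 fold change of −0.56 (standard error 0.31) did not pass (edgeR adjusted p = 0.155). Leaving out articular replicate 1 or 2 gave Ebf1 −0.14 or −1.15, and leaving out xiphoid replicate 1 or 2 gave −0.67 or −0.43. Beside it, all 9 tested adipocyte markers were higher in xiphoid cartilage, with a summed level of 112 and 97.6 CPM in the articular and 3332 and 2766 CPM in the xiphoid libraries. Their part in the Ebf1 values was not tested. Tcf3 was 1.55-fold higher in articular cartilage (edgeR adjusted p = 0.00768), and Id3, which encodes an inhibitor of E proteins such as that of Tcf3, was 1.44-fold higher in xiphoid cartilage (edgeR adjusted p = 0.00869).

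Partners that pass on the receptor signal were mostly higher in articular cartilage, with 10 of 16 tested higher there and 1 in xiphoid cartilage. The list had 17 genes, and the median log2 fold change was 1.38. Among all genes tested the shares were 25.0% and 24.5%, and whether the list departs from them was not tested. Pik3ap1, the adaptor BCAP, was 8.15-fold higher (edgeR adjusted p = 5e-06), and Blnk, the adaptor that follows Syk, was 8.04-fold higher (0.000107). Inpp5d, an inhibitory phosphatase of many blood cells, was 5.83-fold higher (edgeR adjusted p = 2.3e-05), and Plcg2, a phospholipase downstream of the receptor, was 2.82-fold higher (7.01e-05). All 4 had reads in both xiphoid libraries, as Vpreb3 and Rag2 did among the precursor genes, and Plcg2 reached 10.8 CPM in each of them.

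General DNA repair genes that complete V(D)J recombination gave a mixed result. Of 13 tested among 14 listed, 4 were higher in articular cartilage and 1 in xiphoid, and 8 did not pass (median log2 fold change 0.21). Among all 11202 genes tested, 5658 did not pass, 2799 passed on the articular side and 2745 on the xiphoid side. Whether the list departs from these background counts was not tested. Hmgb2, a chromatin protein that helps the Rag complex bind DNA and is abundant in dividing cells, was 3.09-fold higher in articular cartilage (edgeR adjusted p = 1.45e-05). Nhej1, Atm and Lig4 were 1.75-fold to 2.00-fold higher, and all 3 lost their call by DESeq2 and without xiphoid replicate 1.

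Several lists of blood and bone cell markers were higher in articular cartilage, as the precursor genes were. All 8 tested erythroid markers were higher in articular cartilage, with a summed level of 199.7 and 193.3 CPM against 6.59 and 5.75 CPM. Of 8 tested neutrophil markers 7 were, at 190.1 and 193.9 CPM against 10.6 and 12.7 CPM, and Elane, Ctsg, Camp, Ngp and Mmp8 had no xiphoid count. All 7 tested osteoclast markers were higher too, at 1972 and 2058 CPM against 156 and 147 CPM. Of 10 osteoblast markers 8 were higher, among them Bglap, which encodes osteocalcin, at 81.4-fold, and Alpl, the alkaline phosphatase of mineralising cells, at 122-fold, while Dlx5 was higher in xiphoid cartilage and Col1a1 did not pass. Macrophage markers as a whole were nearly level, at 166 and 168 CPM against 155 and 161 CPM, with 2 of 9 higher in each tissue. The part of these cells in the results above was not tested.

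T cell and thymocyte markers bear on Rag1, Rag2 and Dntt. Of 16 listed, 14 were found, 4 tested and 2 higher in articular cartilage, and their summed level was 47.7 CPM in each articular library against 9.41 and 11.9 CPM in the xiphoid libraries. Zap70, a kinase of the T cell receptor, made up a large part of that sum, with 189 and 175 articular counts and 1 and 2 xiphoid counts. The co-receptor Cd4 was the other gene that passed, with 132 and 95 articular and 43 and 55 xiphoid counts (2.24-fold, edgeR adjusted p = 0.00490). Lck had 38 and 29 counts against 16 and 19 and did not pass (edgeR adjusted p = 0.0940). Other chains and co-receptors of the T cell receptor were present at low counts. The articular counts were 9 and 16 for Cd3g, 1 and 13 for Cd3d and 1 and 3 for Cd3e. Cd8a had 5 and 5, and Cd8b had 0 and 1. Beside these, the articular counts were 51 and 35 for Rag1, 50 and 49 for Dntt and 11 and 12 for Rag2. Gene lengths were not taken into account, so counts are not compared between genes. In xiphoid cartilage 7 of the 14 had no count, Cd3e, Cd8a and Cd8b among them. How much of the Rag1, Rag2 and Dntt signal came from T cell precursors was not tested.

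Chondrocyte markers, among them Col2a1 and Acan, were read in both tissues. As both are cartilage, these markers cannot check which library is articular and which xiphoid. All 10 were found and tested, with a summed level of 130561 and 109677 CPM in the articular and 32918 and 30233 CPM in the xiphoid libraries. Col2a1 made up most of the articular sums, and of the 10 genes 6 were higher in articular cartilage, 3 did not pass and 1, Comp, was higher in xiphoid cartilage. Library totals ranged from 7351006 to 8434820 counts, and 1 count in a xiphoid library was worth 0.118 or 0.137 CPM. Skeletal muscle markers were higher in xiphoid cartilage for 9 of 10 genes. Their summed level was 310 and 241 CPM in the articular and 8344 and 8715 CPM in the xiphoid libraries.

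**Figure D4:**
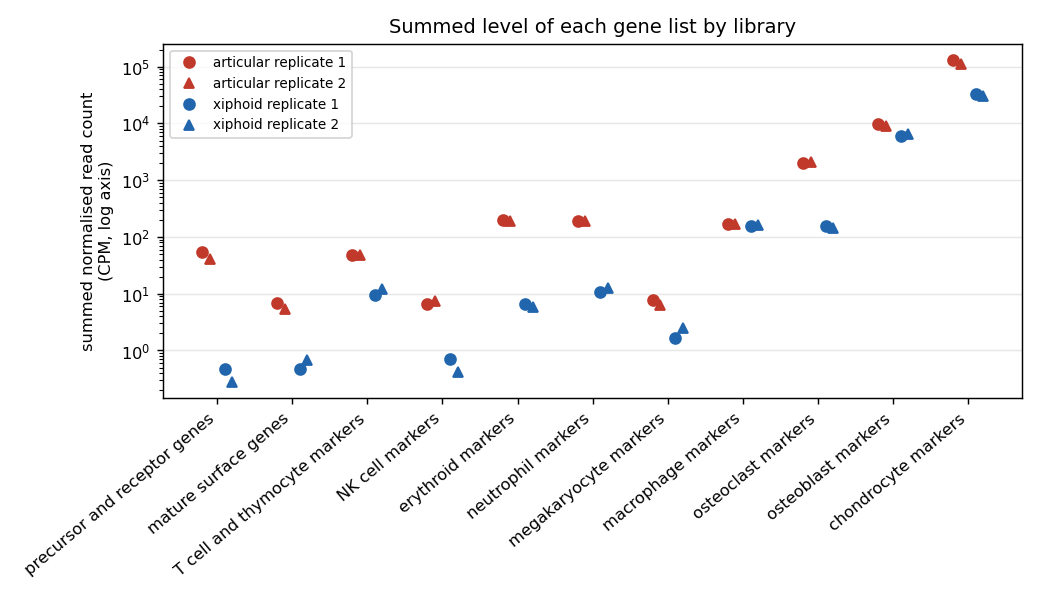
Summed normalised read counts (CPM, log axis) of the precursor and receptor genes and of marker lists of other cell types, 1 point per library. The precursor and receptor genes sum to 53.8 and 40.7 CPM in the articular and 0.470 and 0.274 CPM in the xiphoid libraries, and the erythroid, neutrophil and osteoclast lists are split between the tissues in the same direction.

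The genes whose pattern over the 4 libraries was most like the mean pattern of the 7 tested genes were Slc13a5, Clstn2, Atp8b1, Hbb and Galnt17. Likeness was the distance between log2(CPM + 0.5) values centred on each gene's mean, over 10916 genes, and ran from 0.0546 for Slc13a5 to 0.228 for Galnt17. Of the precursor genes themselves, Rag1 was nearest to that mean, at 0.228, and Rag2 farthest, at 1.93. Clstn2 had 51 and 35 counts in the articular and 0 in both xiphoid libraries. Slc13a5, a citrate transporter, had 306 and 220 counts against 20 and 16. With 4 libraries that fall into 2 tissues, many genes share such a pattern, and Hbb, a globin with near-identical copies, is uncertain.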

How the data were processed

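RNA was sequenced from 2 articular and 2 xiphoid cartilage libraries. The authors deposited 1 expected count (estimated reads, 3.91% of values not whole) per gene and library, without normalisation, per the file headers and values. Build rn6 and the tools RSEM 1.2.12, Bowtie2 2.2.6, StringTie 1.2.1 and HISAT2 2.0.4 are named in the submitters' processing notes, whose list gives them no role or order.

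Counts were rounded, filtered with filterByExpr (11202 of 13554 genes tested, 2352 not), scaled by TMM and tested with the edgeR 4.0.16 quasi-likelihood test in R 4.3.3, 2-sided, on tissue alone (2 residual degrees of freedom), with p-values adjusted by Benjamini-Hochberg across the tested genes (threshold 0.05). CPM use TMM-scaled library sizes. For genes without a count in a tissue, folds are lower bounds against 3 counts over both libraries, and for 1 to 3 counts the ratio has an exact 95% conditional interval (scipy 1.17.1). The procedure was tested on simulated data.

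Described genes and lists (19 lists, 232 entries, 208 matched) were chosen with earlier results of these data known. Some genes of the planned mature list are not reported here and were left out of its counts and sums. Up to 4 genes per list with the lowest p were named, and any the count turns on. Fcmr, Il7r, Ebf1, Tcf3, Id3, Lef1, Cd24, Cd34 and the low T cell genes were also given after their values were seen where outside that rule. Alternatives were RLE, upper-quartile or no scaling factors, no filter, a filter at a mean CPM of 1, limma-voom (limma 3.58.1), DESeq2 1.42.0, a replicate block and leaving out each library.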

Additional observations from a re-analysis of the deposited data

How the results depend on the processing

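Of the 7 tested genes, all were higher in articular cartilage under every scaling, without a filter, by DESeq2 and by limma-voom. With a mean CPM of at least 1, or without either articular library, 6 were tested and 6 passed, since Rag2 was not tested. Without either xiphoid library 6 of 7 passed, again all but Rag2. Without a filter Pax5 was fitted and did not pass (edgeR adjusted p = 0.116). Where a library was left out, the lone sample of that tissue is assumed to vary like the other tissue.

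The ratio of precursor to mature reads moved to 0.215 and 0.138 in the articular and 0.00317 and 0.00159 in the xiphoid libraries when all genes of the mature list were summed. The scaling cancels within a library. Per coding length it was not run, because lengths were not used here.

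2 genes that did not pass changed sign. The log2 fold change of Cd28 was −0.02, that with upper-quartile factors 0.0225, and −0.80 to 0.50 when a library was left out. That of Cd74 was 0.01, and −0.14 to 0.17 when a library was left out.

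The replicate numbers were not taken as pairing the samples, since there are 2 pairs and the labels do not say what a number marks. Their deviations correlated at 0.24 over 11202 genes. With a replicate block 7 of 7 genes stayed higher, 8 of the mature list did, and 3344 of all genes were higher in articular cartilage and 3484 in xiphoid, against 2799 and 2745 without it. Ebf1 passed with the block (log2 fold change −0.61, edgeR adjusted p = 0.0216).

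Library totals of 7351006 to 8434820 counts limit Pax5, Rag2, Cr2 and Fcer2, which had at most 12 counts in any library.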

Other observations

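Plasma cell genes did not move together. Of 10 listed, 8 were tested, 4 were higher in articular cartilage and 2 in xiphoid (median log2 fold change 0.51). Mzb1, a chaperone of antibody-secreting and marginal zone B cells, had 26 and 21 counts in the articular and 0 and 1 in the xiphoid libraries, a scaled ratio of 46.0 (95% interval 7.86 to 1855, edgeR adjusted p = 0.000468). The fitted log2 fold change of Mzb1 was 5.21, and 4.27 without xiphoid replicate 1. Without xiphoid replicate 2, which held that read, it was 7.59, a value that then depends on the prior count of the fit. Sdc1, syndecan 1, which epithelial and other cells also make, was 2.30-fold higher in xiphoid cartilage (edgeR adjusted p = 0.000115).

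Signals of the niche in which B cells form were mixed as well, with 3 of 8 tested higher in articular and 1 in xiphoid cartilage. Tnfsf11, the osteoclast factor RANKL, had 35 and 50 counts against 0 and 0, at least 27.7-fold higher (edgeR adjusted p = 5.45e-05). Cxcr4, the receptor for Cxcl12 on blood precursors, was 6.58-fold higher (edgeR adjusted p = 4.35e-05), and Cxcl12 itself was 1.81-fold higher (0.000364). Il7, which feeds lymphoid precursors, had 3 and 9 counts in the articular and 0 in both xiphoid libraries and was too low to test. Of 8 listed NK cell markers, 7 were found and 1 was tested, Nkg7, with 28 and 28 counts against 0 and 0 (at least 18.3-fold, edgeR adjusted p = 0.00016).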
